A study of Saccharomyces cerevisiae with 4 samples.

Results

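The yapsins are aspartyl proteases of the budding yeast cell surface, held there by a glycosylphosphatidylinositol (GPI) anchor. They cut proteins after basic residues, trim and release proteins of the wall and plasma membrane, and are needed for a sound cell wall. YPS1 and MKC7 code for the founding pair of closely related enzymes, which overlap in function, YPS3 for a smaller relative, and YPS7 for a more distant one whose proteolytic activity is less well defined. The genes described here are these 4, YPS1 (YLR120C), MKC7 (YDR144C), YPS3 (YLR121C) and YPS7 (YDR349C), of the 5539 genes with a named probe. They were taken by symbol from the platform annotation as a protein family, and the family was selected on the centred log ratios of YPS1 and MKC7 on these same arrays, which were already known. Those ratios are therefore a description and carry no test.

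The study set RNA that came down with zzMex67 against total RNA, both from Saccharomyces cerevisiae, and hybridised the pair to each of 4 two-colour arrays. Mex67 is the receptor that takes mRNA out of the nucleus through the pore, and zz is commonly the IgG-binding part of protein A used as an affinity tag. Arrays 1 and 2 carried the precipitate in channel 2, and arrays 3 and 4 carried it in channel 1. The titles also carry 1 of 2 numeric codes of unstated meaning, one shared by arrays 1 and 3 (code A here) and one by arrays 2 and 4 (code B), so that each code holds an array of either channel assignment. If a code marks 1 preparation of RNA, the n of 3 or 4 given below counts dye swaps of 2 preparations. The labels give no strain, growth condition or separate culture, and no untagged or mock precipitate was analysed here, so the SDs and p-values below cover array-to-array spread alone and may reflect technical variation only.

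The ratio is likely that of precipitated to total RNA, as the titles name the precipitate first and total RNA second, but its direction is not stated. The 4 columns were read as turned the same way, because arrays of opposite channel assignment correlated above 0, and a dye effect of single spots was not separated from this reading. Read the other way, every "above" below becomes "below". Array 1 stood apart: its ratios correlated with those of arrays 2, 3 and 4 at r = 0.127, 0.239 and 0.163 across 203, 92 and 106 features (genes, or probes without a gene name), whereas arrays 2 to 4 correlated with each other at 0.756 to 0.889. These correlations are across features, which are not independent replicates. Ratios were scarce, with 845, 2467, 973 and 1112 of 12800 probes holding one on arrays 1 to 4, and their number and the number of arrays limit the precision. Signal over background was not used here.

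Of the 4 yapsin genes, YPS1 and MKC7 had ratios and lay far apart, and YPS3 and YPS7 had none on any array. YPS1 stood 8.43-fold above the array median (mean centred log2 ratio 3.08 ± 0.24, SD, n = 3) and MKC7 5.14-fold below it (mean centred log2 ratio -2.36 ± 1.12, SD, n = 4). Centred here means that the median over the 498 named genes with ratios on at least 3 arrays was subtracted from each array. On array 1 only 100 of these genes had a ratio, and the centre there was log2 -1.71. Centred on all probes with a value instead, MKC7 averaged -1.91 ± 1.48 (SD, n = 4) and YPS1 3.19 ± 0.23 (SD, n = 3). Both positions rest on reading the 4 columns alike: with arrays 3 and 4 turned against arrays 1 and 2, the mean would be -1.16 for YPS1 and 0.85 for MKC7, and limma then calls 0 features (1 has an unadjusted p under 0.05). By title code, YPS1 averaged 3.00 on the 1 array of code A that measured it and 3.11 on the 2 arrays of code B, and MKC7 -2.84 on the 2 arrays of code A and -1.89 on the 2 of code B.

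**Figure D1:**
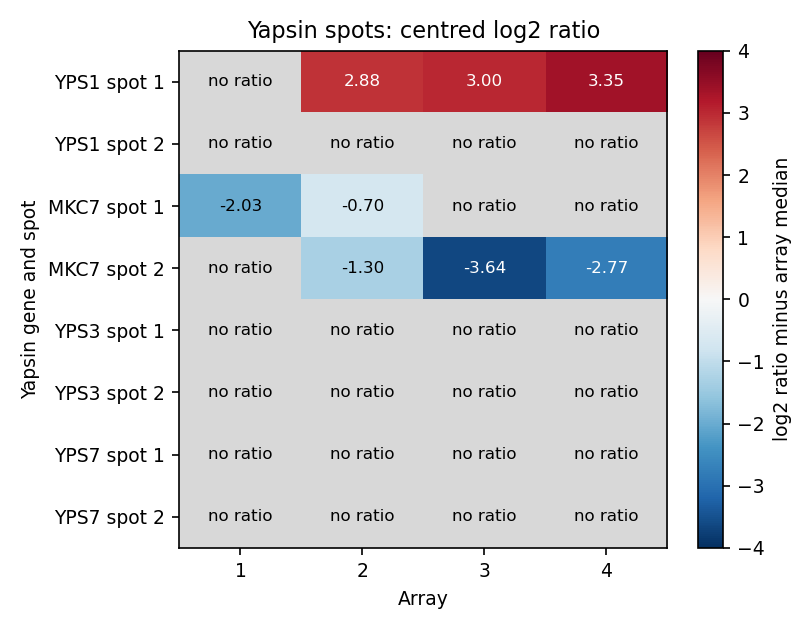
Centred log2 ratio of every yapsin spot (rows, 2 spots for each of the 4 genes) on each array (columns); red is above the array median, blue below, grey has no ratio. YPS1 holds ratios in spot 1 only, MKC7 changes spots between array 1 and arrays 3 and 4, and the rows of YPS3 and YPS7 are empty.

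Each yapsin gene had 2 spots, so that 32 ratios could have been recorded over the 4 arrays, and 8 were. By array, 1, 3, 2 and 2 of the 8 yapsin spots held a ratio on arrays 1 to 4, that is 12.5%, 37.5%, 25% and 25%, beside 6.75%, 19.3%, 7.60% and 8.73% of the other named spots. The family was selected on ratios of YPS1 and MKC7, so its higher shares follow at least in part from that choice. With 8 spots, these shares were not compared by a test. Of all genes with a probe, 68.4% had no ratio on any array, as YPS3 and YPS7 did, and 8.99% had one on at least 3 arrays, as YPS1 and MKC7 did.

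A missing ratio is not a low one: the rule by which spots lost their values is not given in the sources used here, and nothing can be said of the Mex67 association of YPS3 and YPS7 mRNA. The stretch of 400 consecutive probes around YPS3 had ratios for 2.75% to 4.25% of its spots, and that around YPS7 for 3.75% to 6.5%, depending on the array. Over the 32 such stretches the median share was 1.38%, 11.5%, 6.13% and 6.38% on arrays 1 to 4.

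YPS1, whose enzyme is known to release surface proteins such as the mucin Msb2, was read from a single spot. That spot had no ratio on array 1, and deposited log10 ratios of 1.39, -0.21 and 0.52 on arrays 2, 3 and 4. After centring these became log2 ratios of 2.88, 3.00 and 3.35. All 3 lay close together: the mean of arrays 3 and 4 was 3.17, against 2.88 on array 2, which had the RNAs in the opposite channels. The columns were read as turned alike because such arrays correlated above 0, so this closeness is no separate check of YPS1. The difference of 0.29 between these values is below the median absolute difference of 0.48 over the 471 genes measured on arrays 2 to 4.

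The position of YPS1 near the top does not depend on the array median used for centring. Counted from the highest ratio, its spot ranked 44 of 2467 on array 2, 37 of 973 on array 3 and 20 of 1112 on array 4, which puts 98.2%, 96.2% and 98.2% of the measured spots below it. Among the 471 genes with ratios on all of arrays 2 to 4 it ranked 13 by its mean. Its SD over these arrays, 0.24, was below the median of 0.40 for such genes, and 27.4% of them had a smaller one.

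The second YPS1 spot held no ratio on any array, so no repeat spot stands beside these values. This is common on these arrays: of the genes with 2 spots and any ratio, 48.8%, 47.7% and 50.8% had it from 1 spot on arrays 2, 3 and 4. The surrounding stretch of 400 probes was sparse, with 14, 8 and 8 ratios on arrays 2, 3 and 4. Centred on the median of that stretch YPS1 had log2 ratios of 3.04, 2.17 and 2.61, a mean of 2.61 ± 0.44 (SD, n = 3) that rests on fewer than 20 ratios per array.

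MKC7, also known as YPS2, lay below the centre on every array, with a wide spread and from different spots. Its first spot had deposited log10 ratios of -1.13 on array 1 and 0.31 on array 2, and its second spot 0.13, -2.22 and -1.32 on arrays 2, 3 and 4. As centred log2 ratios the first spot gave -2.03 and -0.70, and the second -1.30, -3.64 and -2.77. The gene thus has a value on all 4 arrays although neither of its spots does. The second spot alone averaged -2.57 ± 1.18 (SD, n = 3), 5.95-fold below the median.

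Both MKC7 spots could be compared on array 2, where their log2 ratios differed by 0.60. Of the 724 genes with both spots measured on that array, 54.4% had a smaller difference, and the median was 0.53. The disagreement between the spots of MKC7 was therefore ordinary, and much smaller than its spread between arrays.

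That spread was not ordinary. Over arrays 2 to 4 MKC7 had an SD of 1.35, and 96.8% of the 471 genes had a smaller one. The 2 arrays with precipitated RNA in channel 1 (arrays 3 and 4) averaged -3.21, against -1.001 on array 2, a difference of -2.21 that exceeds, in size, those of 98.1% of the other genes. With array 1 included, the arrays with the precipitated RNA in channel 2 averaged -1.52. The difference was -1.69 (arrays 3 and 4 minus arrays 1 and 2). Centred on the array median, the values of the pairs did not overlap. Within title codes and centred on the array median, array 3 (-3.64) lay below array 1 (-2.03), and array 4 (-2.77) below array 2 (-1.001). Array 1 holds the first spot only and arrays 3 and 4 the second only, so spot and channel assignment cannot be told apart between them. On array 2 the second spot alone had -1.30. With centring on the array median the channel assignment moves with the ratio of MKC7. Centred on the median of the surrounding stretch of probes instead, the values of the pairs overlapped. Array 1 then had -3.10, below -2.80 on array 3 and -2.02 on array 4. The spots on array 2 had -0.62 and -1.22. The value of array 1 rests there on 4 ratios. Neither the part of the channel assignment in the result nor that of the spot was tested.

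In ranks, the second MKC7 spot had 9 of 973 spots below it on array 3 and 45 of 1112 on array 4, but 444 of 2467 on array 2, and the first spot 854 of 2467 there. On array 1 the first spot had 276 of 845 spots below it. Among the 471 genes on arrays 2 to 4, counted from the lowest ratio, MKC7 ranked 6 on array 3, 23 on array 4, 117 on array 2 and 20 by its mean. The low position of MKC7 was thus extreme on arrays 3 and 4 and moderate on arrays 1 and 2.

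By probe number, MKC7 also fell in the most densely measured stretch on arrays 2 to 4. Of the stretch of 400 probes that holds it, 80.25%, 31.25% and 43.5% had a ratio on arrays 2, 3 and 4, the highest share of the 32 stretches on each, and 1% on array 1. Centred on the median of this stretch the gene averaged -2.21 ± 0.97 (SD, n = 4). The value of array 1 there rests on 4 ratios. Without array 1 the mean relative to the array median was -2.47 ± 1.35 (SD, n = 3).

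**Figure D2:**
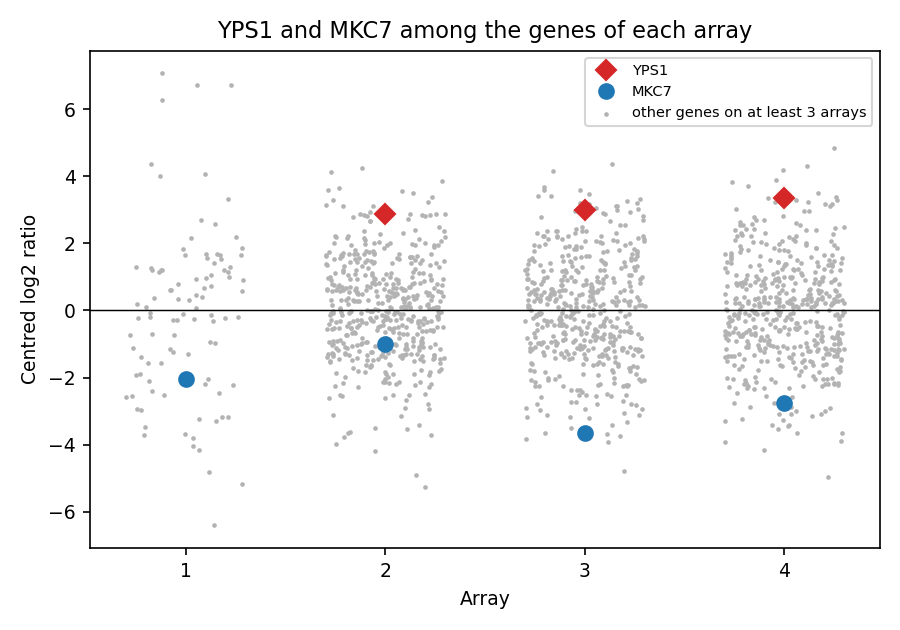
Centred log2 ratio (vertical axis) of YPS1 (red diamonds) and MKC7 (blue circles) on each array, over all other genes with ratios on at least 3 arrays (grey points, spread sideways for visibility). YPS1 sits near the top on arrays 2 to 4, between 2.88 and 3.35, and MKC7 moves between -3.64 and -1.001.

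The distance between the related genes can be read within each array, free of the array median used for centring. YPS1 exceeded MKC7 by 3.88 log2 units on array 2, 6.65 on array 3 and 6.12 on array 4, a mean of 5.55 ± 1.47 (SD, n = 3), or 46.8-fold. With the second MKC7 spot alone, which was measured on the same arrays as YPS1, the differences were 4.18, 6.65 and 6.12, with a mean of 5.65 ± 1.30 (SD, n = 3). YPS1 was higher on 3 of 3 arrays. Ratios of different spots were set against each other here, each being a ratio of precipitated to total RNA and not a level of the mRNA. As the genes were chosen with their ratios known, this distance is a description. Spots of genes alike in sequence may pick up each other's RNA, and no probe sequences were used here, so the extent of that for YPS1 and MKC7 was not tested.

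YPS1 and YPS3 lie side by side on the chromosome, but only YPS1 has ratios. On its other side, SRN2 had no ratio. Next to MKC7, SAN1 had none, and TAF12, a subunit shared by TFIID and the SAGA coactivator, had log2 ratios of -0.01, 0.79 and 0.36 on arrays 2, 3 and 4 (mean 0.38 ± 0.40, SD, n = 3), close to the array median and above MKC7 on each. Beside YPS7, PAL1 had no ratio and ATP22 had one on array 1 only, at 0.08. YLR122C, next to YPS3, had no named probe.

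The genes with the pattern most like YPS1, by the root mean square difference of centred log2 ratios over arrays 2 to 4, were a mixed group. Of 470 genes compared, YHR214W came nearest at a difference of 0.04, followed by CYC1, the main cytochrome c, at 0.05, and SSA2, a cytosolic Hsp70, at 0.16. RPS27B and RPL8B, of the small and large ribosomal subunits, followed at 0.34 each, and the median over all 470 was 3.07. CYC1 had log2 ratios of 2.89, 2.94 and 3.30 on arrays 2, 3 and 4, each at most 0.06 from YPS1.

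Over all 4 arrays MKC7 had no close companion. Only 72 genes could be compared there, and the nearest, HDA2 of a histone deacetylase complex, differed by 1.32, against a median of 2.86. GID10 (1.43), ASP3-1, an asparaginase with near-identical copies that can share signal (1.53), NAB3, which acts in termination of noncoding transcripts (1.60), and ECM38, a gamma-glutamyltransferase (1.66), came next. MKC7 differed by -2.64 between arrays 3 and 2 (array 3 minus array 2), and none of the 5 came near that: HDA2, with the most negative such difference among them, had -0.40. That search includes array 1, which stood apart, and reaches fewer genes than the one for YPS1. Over arrays 2 to 4, a search added after the 4-array one was seen, 470 genes could be compared and MKC7 did have a near match: YNL165W, at a root mean square difference of 0.26, had log2 ratios of -0.98, -3.20 and -2.87, against -1.001, -3.64 and -2.77 for MKC7. ARP8, of the INO80 chromatin remodelling complex (0.60), DUS3, a tRNA dihydrouridine synthase (0.62), RPL16A, of the large ribosomal subunit (0.73), and FMT1, a mitochondrial formyltransferase (0.74), came next, and the median was 2.78. The 5 were picked for likeness, so their sharing the pattern is no separate result.

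**Figure D3:**
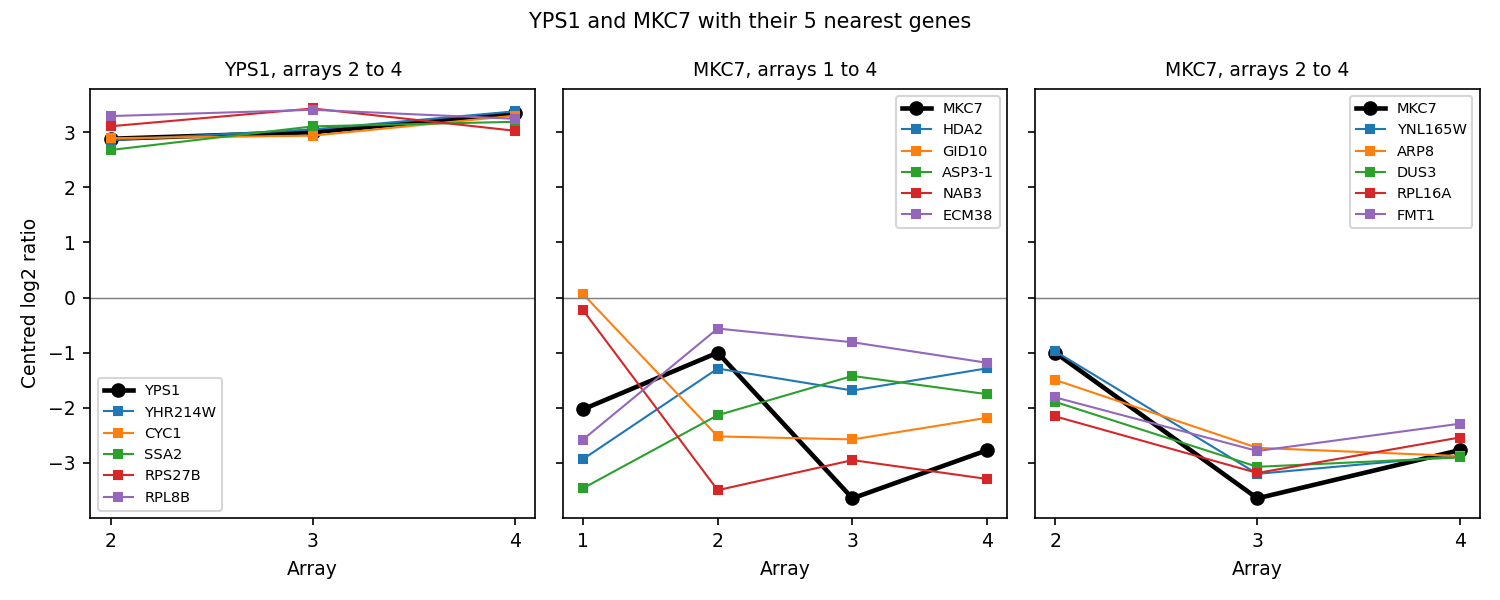
Centred log2 ratios (vertical axis) by array for YPS1 (left, arrays 2 to 4) and MKC7 (middle, arrays 1 to 4; right, arrays 2 to 4), in black, with the 5 genes nearest to each; lines join the values of a gene and imply no order of arrays. The lines of YHR214W and CYC1 nearly coincide with YPS1, at root mean square differences of 0.04 and 0.05, and those of RPS27B and RPL8B lie at 0.34 each. Those around MKC7 diverge over 4 arrays, the nearest at 1.32, and run closer over arrays 2 to 4, the nearest at 0.26.

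Other aspartyl proteases of yeast were too sparsely measured for the fit. YPS5 and YPS6, listed as yapsins by name, had a ratio on array 2 only (log2 -1.28) and on array 1 only (log2 -1.64). PEP4, the vacuolar proteinase A, had log2 -7.91 on array 2 and no other ratio, and DDI1, a proteasome shuttle with a retroviral-type protease fold, had -0.37 and 0.07 on arrays 2 and 3. BAR1, the secreted protease that degrades alpha factor, had none. YPS1 on array 2, at 2.88, lay above each of the 3 measured there, and MKC7, at -1.001, between DDI1 and YPS5.

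For the genes around the yapsins, the mean centred log2 ratio was tested against 0 across all 596 features with at least 3 ratios, by limma with Benjamini-Hochberg adjustment. The test called 134 features (22.5%) higher than the median of the arrays and 150 (25.2%) lower. Over all 596 the median mean log2 ratio was near 0, at -0.0047, which the centring on the named genes among them largely fixes.

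Among 18 processing and vacuolar proteases, 6 had a ratio and 1 was tested. This was KEX1, the carboxypeptidase that removes the basic residues left after Kex2 cuts, and it lay 9.39-fold below the median. Its log2 ratios were -2.91, -2.90 and -3.88 on arrays 2, 3 and 4 (mean -3.23 ± 0.56, SD, n = 3; limma, adjusted p = 0.00444). It was low on all 3 arrays, lower than MKC7 on arrays 2 and 4 and higher than MKC7 on array 3. KEX2, the Golgi protease whose specificity for basic residues the yapsins share in part, had a ratio on array 2 only, at 0.42.

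Yapsins reach the surface through the GPI anchor, and of 28 genes with a probe for making or attaching it, 11 had a ratio and 2 were tested. GPI19, of the first step of anchor synthesis, lay above the median at log2 1.68, 1.07 and 0.62 on arrays 2 to 4 (mean 1.12 ± 0.54, SD, n = 3; limma, adjusted p = 0.0373). That call ended with any of arrays 2, 3 and 4 left out (adjusted p = 0.103, 0.118 and 0.0845), and after averaging within title codes (adjusted p = 0.0517). GPI15, of the same enzyme complex, had a mean of -0.37 ± 0.32 (SD, n = 3) and was not called. The median of the 2 means was 0.38.

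The wall proteins with a GPI anchor or of the Pir family, which share the compartment of the yapsins, gave the most values. Of 42, 20 had a ratio and 10 were tested; 2 lay above, 5 below and 3 were not called, which is 20% and 50% beside 22.5% and 25.2% of all features. The median of the 10 means was log2 -0.66. Both YPS1, at 3.08, and MKC7, at -2.36, are GPI-anchored too: YPS1 lay above the highest of the 10 means, 1.46, and MKC7 within their range, whose lowest was -3.25.

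HSP150, a Pir protein, lay above the median at log2 1.26, 1.77, 1.45 and 1.36 on arrays 1 to 4 (mean 1.46 ± 0.22, SD, n = 4; limma, adjusted p = 0.00444). SED1, an abundant structural wall protein, had 0.82, 1.49 and 1.21 on arrays 2 to 4 (mean 1.17 ± 0.34, SD, n = 3; limma, adjusted p = 0.0205). Below the median lay ECM33, a GPI protein needed for wall organisation, at -3.53, -2.94 and -3.27 on arrays 2 to 4 (mean -3.25 ± 0.30, SD, n = 3; limma, adjusted p = 0.00381). These genes held the same side on every array with a ratio.

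The phospholipases PLB3 and PLB1, also GPI-anchored, lay below with means of -2.14 ± 0.06 and -1.43 ± 0.30 (SD, n = 3; limma, adjusted p = 0.00444 and 0.0117). CIS3, another Pir protein, and the flocculin FLO1, both singled out after their values were seen, completed the 5 at -1.35 ± 0.26 and -1.08 ± 0.38 (SD, n = 3; limma, adjusted p = 0.0121 and 0.0283). FLO1 has close relatives that can share its signal. The 3 not called were CCW12 at 1.12 ± 1.71 (SD, n = 4), CWP2 at 0.35 ± 0.88 (SD, n = 4) and TIR2 at -0.24 ± 0.85 (SD, n = 3). Without array 4 the calls in this list numbered 1 above and 2 below, and those over all 596 features 45 and 41. Without array 3 they numbered 1 and 3 in this list, and 83 and 88 over all features. With no array left out, those over all features were 134 and 150. The calls of SED1 and PLB1 ended in both cases. Centred within stretches of 400 probes, the calls numbered 1 and 3 in this list, and 107 and 99 over all features. The call of HSP150 then ended (limma, adjusted p = 0.0562). CIS3 and FLO1 came to -0.12 and 0.15 and lost theirs (limma, adjusted p = 0.7004 and 0.646). PLB3 kept its call at -1.09 ± 0.32 (SD, n = 3, limma, adjusted p = 0.0324), about 1.97 times nearer to 0.

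Of 47 genes with a probe for glucan and chitin synthesis and remodelling, 15 had a ratio, 6 were tested and 0 were called (limma), beside 47.7% of all features in either direction, with a median mean of log2 0.21. The largest means belonged to NCA3, of the SUN family, at 1.26 ± 1.00 (SD, n = 3; limma, adjusted p = 0.0758), and KRE5, needed for beta-1,6-glucan, at 0.94 ± 0.91 (SD, n = 4; limma, adjusted p = 0.0918). Both passed without array 1 (adjusted p = 0.0471 and 0.00765). NCA3 also passed with a term for the channel assignment (1.53, adjusted p = 0.0351), and KRE5 with arrays centred on all probes with a value (1.40, adjusted p = 0.00903). For KRE5 array 1, at -0.33, lay below the 0.88 to 1.62 of the others. The size of that gap depends on the centring: with arrays centred on all probes with a value, the SD of KRE5 was 0.44 and not 0.91. NCA3 has no ratio on array 1.

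The cell wall integrity pathway, a MAP kinase cascade under whose control YPS1 is known to be induced, had 35 genes with a probe, of which 9 had a ratio and 1 was tested. OPY2, a membrane anchor of the osmosensing pathway that was included with the mucin sensors MSB2 and HKR1, lay below at log2 -2.20, -1.34 and -2.07 on arrays 1, 2 and 4 (mean -1.87 ± 0.46, SD, n = 3; limma, adjusted p = 0.00838). Its call ended without array 4 (adjusted p = 0.0582). MSB2, which Yps1 is known to shed, and the kinase SLT2 and its factor RLM1 had no ratio on any array. Nor had MLP1, which stands in this list although its present symbol belongs to a protein of the nuclear basket.

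**Figure D4:**
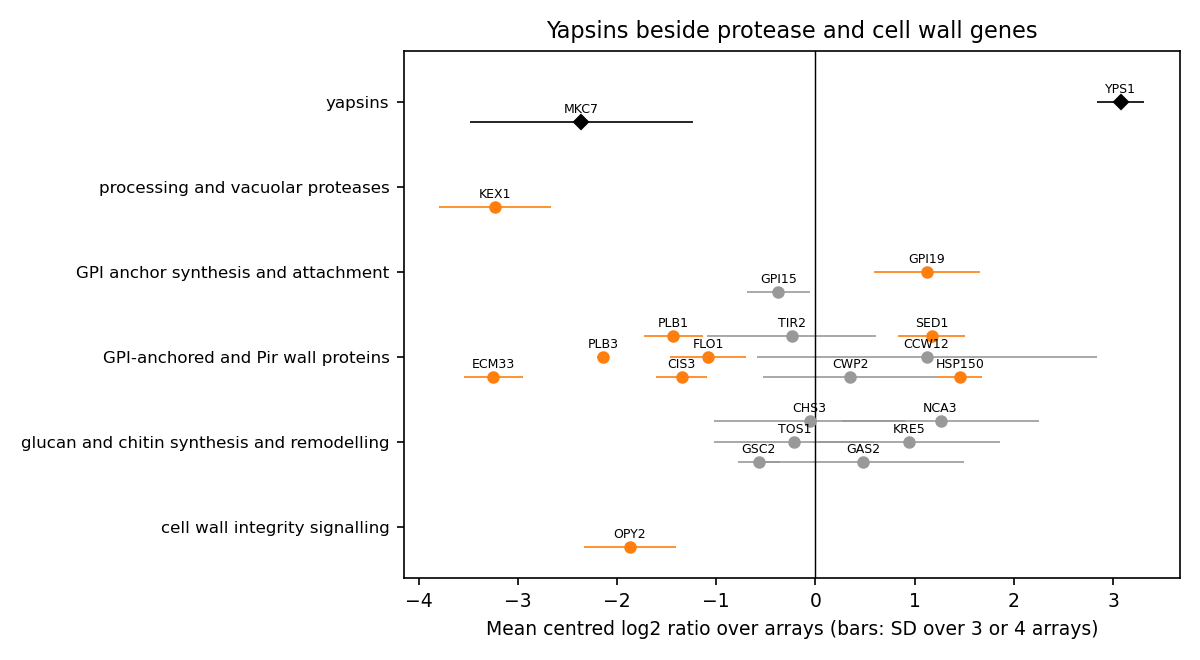
Mean centred log2 ratio over arrays (horizontal axis; bars are the SD over 3 or 4 arrays) of the yapsins (black diamonds, not tested) and of protease and cell wall genes with at least 3 ratios, by list; orange circles passed limma's test at an adjusted p under 0.05 and grey ones did not. YPS1, at 3.08, lies to the right of every other gene drawn, and MKC7, at -2.36, to the left of all but KEX1 and ECM33.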

How the data were processed

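The authors deposited 1 value per probe and array on a log10 scale; for background correction, normalization and the rule for missing values, nothing is given in the sources used here. The log10 base was read from the deposited values: taken as log10, 23.2% of 5397 are within 1.2e-09 of a quotient of whole numbers with a denominator up to 1000, against 0.204% for base 2. Scale is thus settled, and direction stays unstated. The probes that kept a value were not centred on 0 (array medians log10 -0.960, 0.462, -1.12 and -0.519). Whether the arrays were centred before spots lost their values is not known.

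Gene names came from GEO's platform annotation (11138 with 1 symbol, 0 with several, 1662 with none here), checked by Entrez identifier against the RefSeq gene table of assembly R64 (11128 matched), which also gave neighbouring genes. The files name no genome build, so no coordinates are given. Repeated rows (2) and the probes of a gene were averaged. Values were converted to log2 and centred on medians of -1.71, 1.74, -3.71 and -1.61, over 100, 496, 480 and 491 genes on arrays 1 to 4. The 498 genes and 98 unnamed probes with at least 3 ratios were fitted with lmFit and eBayes (limma 3.58.1, statmod 1.5.0, R 4.3.3), two-sided, at an adjusted p of 0.05, and the fit was tested on simulated data. Python 3.11.15 served for the rest.

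The members and lists were chosen with earlier results of these data known. Named were the yapsins, the up to 3 largest calls per list and direction (the 2 largest means if none), the 5 genes most like each measured yapsin, and chromosomal neighbours with a ratio; neighbours without one are named to account for them, and BAR1, DDI1, PEP4, KEX2, GPI15, CCW12, CWP2, TIR2, SLT2, RLM1, MSB2 and HKR1 were added to complete counts. Alternatives were other centring and scaling, the direction of arrays 3 and 4, other limits on missing values, a channel term, the title code as a block, arrays left out, a variance trend, a stricter threshold and probes kept apart. Averaging the arrays of a title code and the search for genes like MKC7 over arrays 2 to 4 were added later.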

Additional observations from a re-analysis of the deposited data

How the results depend on the processing

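The distance of YPS1 above and of MKC7 below the median kept its direction under each centring and scaling tried and with features on at least 2 arrays (the limit of all 4 arrays applies to MKC7 only), but not when arrays 3 and 4 were turned against arrays 1 and 2. Turned, YPS1 averaged log2 -1.16 and MKC7 0.85, and 0 features lay above and 0 below (limma; 1 at an unadjusted p under 0.05). The means of ECM33, PLB1, PLB3, KEX1, SED1, KRE5 and GPI19 then reversed too, to 0.89, 0.69, 0.67, 1.29, -0.63, -0.30 and -0.0012. Without centring YPS1 averaged 1.88 and MKC7 -3.69, GPI19 -0.07, SED1 -0.03 and KRE5 -0.38, and again 0 features lay above and 0 below (limma; 52 at an unadjusted p under 0.05). YPS1 moved by over 1 SD to 3.91 under quantile normalization and to 2.61 centred within blocks of 400 probes, where 99 features lay below. On all 4 arrays, with 80 features, 13 lay above and 8 below. At an adjusted p under 0.01 there were 66 and 60, and with probes kept apart 209 above and 196 below of a larger 822 tested. With 1 array left out, YPS1 had 2.94 to 3.17 and MKC7 -2.82 to -1.93, and 45 to 168 features lay above and 41 to 174 below, the lowest without array 4 and the next, 83 and 88, without array 3. GPI19 lost its call with features on at least 2 arrays (adjusted p = 0.0639). Centred on all probes with a value, MKC7 averaged -1.91. The cause of these shifts was not tested, other than that fewer features or arrays enter some fits. Blocking on title code gave 127 above and 136 below, and averaging within codes, chosen after seeing the data, 102 and 115. The 4 arrays form 1 group, with no second group to pair. The 2 channel assignments could be paired within title codes, but no such pairing was tested.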
